A study of Mus musculus with 2 samples.

Results

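Cyclins, CDK inhibitors and Myc genes are described here in mouse embryonic stem cells as 9 genes chosen by their symbols: Ccnd1, Ccnd2, Ccnd3, Ccne1, Cdkn1a, Cdkn1b, Cdkn2a, Myc and Mycn. Each symbol was found once among the 32285 genes of the deposited tables. Cells of the R1 strain were kept in N2B27 for 72 hours and captured as 2 droplet libraries, 1 per condition. LB cells, on gelatin, received LIF and BMP4. LBPXRS cells, on fibronectin, received the same LIF and BMP4 together with PD0325901 (a MEK inhibitor), Xav939 (a tankyrase inhibitor that lowers WNT signalling), SB431542 (an inhibitor of the activin and NODAL receptors) and a compound labelled Resorcyclic lactone, for which no target is labelled. Substrate and medium therefore changed together and cannot be told apart. R1 is 1 established line, and the labels name no separate cultures, so no difference below has a replicate check, no test across samples was possible, and all intervals are exact 95% intervals for counting error only.

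D-type cyclins bind the kinases CDK4 and CDK6, and E-type cyclins bind CDK2. These complexes phosphorylate the retinoblastoma family and release E2F factors, which carries a cell from G1 into S phase. Proteins of the CDK inhibitor genes oppose them: Cdkn2a encodes p16Ink4a, which binds CDK4 and CDK6, and p19Arf, which stabilises p53, while Cdkn1a (p21) and Cdkn1b (p27) bind cyclin and CDK complexes. Myc and Mycn are related transcription factors that drive growth and ribosome production. Mouse embryonic stem cells are known for a short G1 phase, and growth signals such as ERK and WNT are known to act on D-type cyclins and on Myc in many cell types.

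The kept cells numbered 1783 in LB, with 45490517 UMIs (unique molecular identifiers, 1 per captured RNA molecule), and 2705 in LBPXRS, with 51832444 UMIs. Median depth was 25418 UMIs per cell in LB and 19058 in LBPXRS. Levels are counts per 1000000 UMIs of the kept cells (CPM), and a log2 ratio is log2((CPM in LBPXRS + 1)/(CPM in LB + 1)), which understates the change of low genes. Since 1 tag is counted per captured 3′ end, levels were not divided by gene length. The stem cell markers Pou5f1, Sox2 and Nanog were present in both libraries, at 719, 123 and 75.2 CPM in LB and 990, 232 and 177 CPM in LBPXRS. Naive markers summed to 1046 CPM in LB and 1540 CPM in LBPXRS, with Klf4 at 38.1 and 212 CPM and Esrrb at 23.1 and 62.6 CPM, while Dppa3 was lower in LBPXRS, at 126 and 38.9 CPM. Formative markers summed to 185 and 46.3 CPM, with Otx2 at 37.8 and 38.3 CPM. Primitive streak markers summed to 245 CPM in LB and 2.41 CPM in LBPXRS, and the 4 markers of Hand1 mesoderm to 139 and 0.830 CPM, with Hand1 itself at 0 in LBPXRS. Trophoblast markers summed to 60.4 and 15.8 CPM, of which Cdx2 was 45.2 and 0.0193 CPM, while Gata3 (5.23 and 7.72 CPM) and Krt7 (6.07 and 7.18 CPM) were not lower in LBPXRS, Tfap2a was 3.89 and 0.791 CPM, and Elf5 was at 0 in LB. Fibroblast markers summed to 14.2 and 4.51 CPM, with 3 of 6 at 0 in LBPXRS. The libraries also stood apart in ways their shared R1 label does not give: 4 Y-linked genes had 2872 UMIs in LB and 1 in LBPXRS, and genes of chromosomes 8 and 11 had median log2 ratios of -0.61 and -0.63. None of the 9 genes lies on those chromosomes, and the medians of the chromosomes they lie on ran from -0.15 to 0.0057. Across 7661 genes with at least 10 CPM in either library the median was -0.17. The libraries shared 10 barcodes.

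Promoter windows (250 bases before to 50 after a start, RefSeq, GRCm38.p6) were found for 6 of the 9 genes. No window was found for Ccnd1, Ccnd2 or Myc. The windows below are shown because Ccnd3 and Cdkn2a, the genes that were higher in LBPXRS, each have 2 starts that the counts cannot tell apart. Capitals mark the GC box, searched as GGGCGG on both strands, which 35.7% of all 32851 windows of this length hold. The first Ccnd3 window lies at chr17:47504801-47505100 (+) and the second, at an inner start, at chr17:47593217-47593516 (+). The Cdkn2a window of the inner start, which gives p16Ink4a, lies at chr4:89282143-89282442 (-).
Ccnd3, outer start: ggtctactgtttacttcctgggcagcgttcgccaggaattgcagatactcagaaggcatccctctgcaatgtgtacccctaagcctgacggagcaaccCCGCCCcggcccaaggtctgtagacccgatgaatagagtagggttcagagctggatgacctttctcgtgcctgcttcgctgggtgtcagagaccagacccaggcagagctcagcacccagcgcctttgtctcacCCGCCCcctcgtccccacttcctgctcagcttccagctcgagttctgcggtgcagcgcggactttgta
Ccnd3, inner start: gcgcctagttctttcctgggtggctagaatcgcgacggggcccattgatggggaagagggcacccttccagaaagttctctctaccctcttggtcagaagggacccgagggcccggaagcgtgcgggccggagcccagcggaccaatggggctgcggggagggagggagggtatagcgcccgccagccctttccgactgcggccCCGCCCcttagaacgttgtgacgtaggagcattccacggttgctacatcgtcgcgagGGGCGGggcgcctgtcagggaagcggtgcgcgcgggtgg
Cdkn2a, inner start: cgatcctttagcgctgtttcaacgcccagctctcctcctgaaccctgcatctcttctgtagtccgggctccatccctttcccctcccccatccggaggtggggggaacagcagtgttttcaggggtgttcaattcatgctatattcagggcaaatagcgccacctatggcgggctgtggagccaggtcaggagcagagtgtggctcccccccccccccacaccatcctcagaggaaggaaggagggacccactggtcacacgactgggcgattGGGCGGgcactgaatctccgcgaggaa

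E2F sites were searched as TTTCCCGC, TTTCGCGC, TTTGCCGC and TTTGGCGC on both strands, and 2.26% of all windows hold one. Among the windows of the 6 genes they were found in Mycn, with 3 matches of which 1 pair overlaps, and at the outer start of Cdkn2a, which gives p19Arf, with 1 match. The Mycn window is chr12:12941787-12942086 (-) and that of Cdkn2a chr4:89294570-89294869 (-), with the matches in capitals. The MYC E box CACGTG, present in 7.15% of all windows, was in none of the 9 windows of these 6 genes. A match is a run of letters and shows no binding.
Mycn: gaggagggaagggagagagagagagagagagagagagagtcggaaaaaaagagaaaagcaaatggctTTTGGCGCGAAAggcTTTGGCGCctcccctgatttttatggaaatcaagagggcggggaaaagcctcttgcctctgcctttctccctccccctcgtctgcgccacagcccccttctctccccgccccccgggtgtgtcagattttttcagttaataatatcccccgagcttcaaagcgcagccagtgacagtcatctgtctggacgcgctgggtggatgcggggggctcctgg
Cdkn2a, outer start: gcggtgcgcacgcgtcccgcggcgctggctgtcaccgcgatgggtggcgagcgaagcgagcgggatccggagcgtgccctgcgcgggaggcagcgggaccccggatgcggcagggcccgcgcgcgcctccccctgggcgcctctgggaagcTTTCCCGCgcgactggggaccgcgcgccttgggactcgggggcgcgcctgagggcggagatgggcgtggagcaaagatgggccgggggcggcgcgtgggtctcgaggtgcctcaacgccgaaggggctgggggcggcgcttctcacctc

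In LBPXRS, Ccnd2 and Myc were at least 2-fold lower, Ccnd3 and Cdkn2a were at least 2-fold higher, and the other 5 genes stood between these limits. All 9 genes passed the minimum of 10 CPM in either library. Among all 7661 genes, 10.4% were at least 2-fold lower and 7.98% at least 2-fold higher, so 2 of 9 in each direction is a small count read against shares of that size. The median log2 ratio of the 9 genes was -0.44. The D-type cyclins thus lay in opposite directions, and of the CDK inhibitors Cdkn2a stood higher and Cdkn1a nearest to 0.

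**Figure D1:**
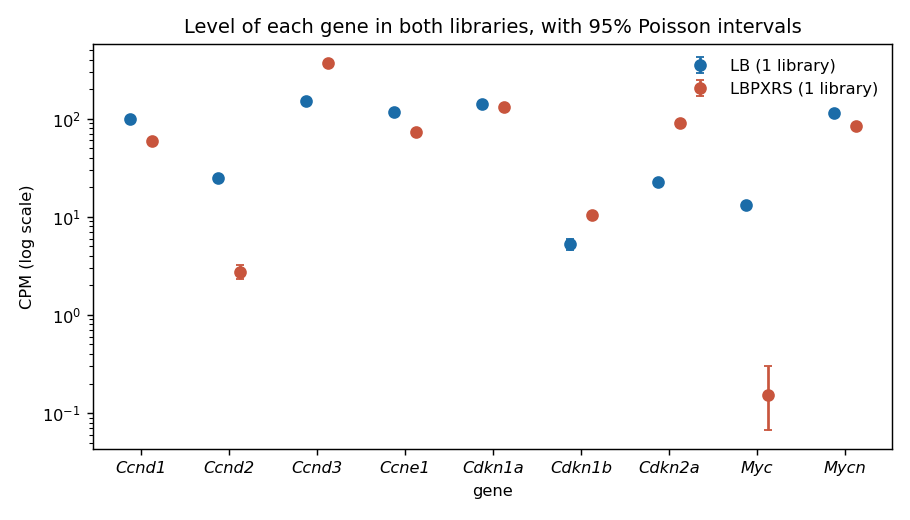
Levels of the 9 genes in the LB and LBPXRS libraries, in CPM on a log axis, with exact 95% Poisson intervals for counting error. Ccnd3 and Cdkn2a sit higher in LBPXRS, at 369 and 89.7 CPM, while Ccnd2 and Myc sit lower, at 2.74 and 0.154 CPM.

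Ccnd3 (ENSMUSG00000034165, chr17:47505051-47599691, GRCm38) was the D-type cyclin with the most UMIs in both libraries. Its level was 153 CPM in LB (6966 UMIs, 150 to 157) and 369 CPM in LBPXRS (19138 UMIs, 364 to 374). That is 2.41-fold higher in LBPXRS (2.35 to 2.48), a log2 ratio of 1.26. After each cell was thinned to 5000 UMIs, it was found in 49.6% of 1733 LB cells and 80.5% of 2621 LBPXRS cells, against 89.4% and 96.7% without thinning. Thinning left out 50 LB cells and 84 LBPXRS cells that were shallower. On the opposite strand Ccnd3 overlaps Bysl, which had 1795 and 1641 UMIs.

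Ccnd2 (ENSMUSG00000000184, chr6:127125162-127152193) went the other way. LB had 1125 UMIs, 24.7 CPM (23.3 to 26.2), and LBPXRS 142 UMIs, 2.74 CPM (2.31 to 3.23). It was 9.03-fold lower in LBPXRS (7.58 to 10.8), a log2 ratio of -2.78. Thinned shares of cells with a UMI were 8.89% and 1.37%, and unthinned shares 23.7% and 4.51%. This direction depended on which LB cells were used, as given below by marker group: against LB cells with naive markers alone the log2 ratio was 0.48.

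Ccnd1 (ENSMUSG00000070348, chr7:144929931-144939925) had 99.6 CPM in LB (4530 UMIs, 96.7 to 103) and 58.7 CPM in LBPXRS (3042 UMIs, 56.6 to 60.8). Its level was 1.70-fold lower in LBPXRS (1.62 to 1.78), and its intervals did not overlap, but the log2 ratio of -0.75 stayed inside 2-fold. It was found in 32.7% of thinned LB cells and 23.8% of thinned LBPXRS cells. The deepest single-cell count was 48 UMIs in LB and 14 in LBPXRS.

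Set beside each other, the 3 D-type cyclins had a different make-up in the libraries. In LB, Ccnd1 gave 35.9%, Ccnd2 8.91% and Ccnd3 55.2% of their 12621 UMIs. In LBPXRS the shares of 22322 UMIs were 13.6%, 0.636% and 85.7%. Their sum was also higher in LBPXRS, at 431 CPM (425 to 436) against 277 CPM in LB (273 to 282). Thus Ccnd3 alone in LBPXRS exceeded the sum of all 3 in LB.

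**Figure D2:**
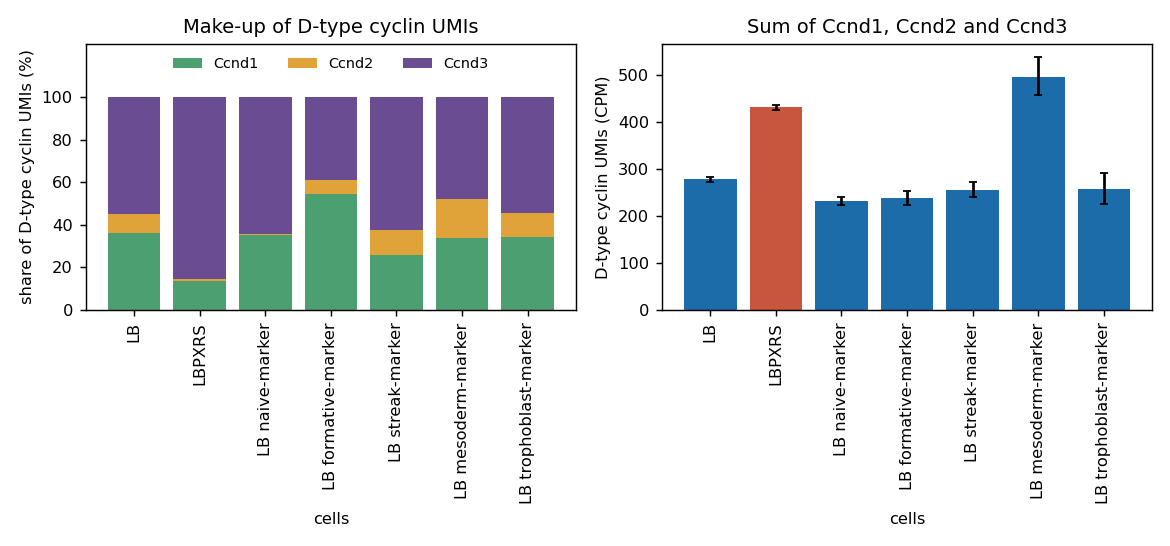
Left, the share of D-type cyclin UMIs from Ccnd1, Ccnd2 and Ccnd3, in percent, in each library and in the LB marker groups. Right, their summed level in CPM with exact 95% Poisson intervals. Ccnd3 gives 85.7% of the UMIs in LBPXRS, Ccnd1 gives 54.3% in formative-marker LB cells, and Ccnd2 gives 18.3% in mesoderm-marker LB cells.

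Cyclin E was represented by Ccne1 (ENSMUSG00000002068, chr7:38097984-38107534), which binds CDK2 at the start of S phase. It had 118 CPM in LB (5355 UMIs, 115 to 121) and 73.7 CPM in LBPXRS (3819 UMIs, 71.4 to 76.1), 1.60-fold lower (1.53 to 1.67). The thinned shares were 37.7% and 30.3%. Ccne1 and Ccnd1 thus differed by similar amounts, with log2 ratios of -0.67 and -0.75.

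Among the CDK inhibitors, Cdkn2a (ENSMUSG00000044303, chr4:89274471-89294653) differed the most. It had 22.4 CPM in LB (1018 UMIs, 21.0 to 23.8) and 89.7 CPM in LBPXRS (4648 UMIs, 87.1 to 92.3), 4.01-fold higher (3.74 to 4.29). The gene was found in 9.87% of thinned LB cells and 35.6% of thinned LBPXRS cells, or 35.4% and 77.7% unthinned. Its transcripts for p16Ink4a and p19Arf share their last exons, so a 3′ count cannot say which of them was higher. Cdkn1b (ENSMUSG00000003031, chr6:134920401-134925513) was low in both libraries, at 5.28 CPM in LB (240 UMIs, 4.63 to 5.99) and 10.4 CPM in LBPXRS (539 UMIs, 9.54 to 11.3). The ratio was 1.97 (1.69 to 2.30), and its log2 ratio, 0.86, lay inside the 2-fold limit. Cdkn1a (ENSMUSG00000023067, chr17:29090976-29100727), a target of p53, had 141 CPM in LB (6426 UMIs, 138 to 145) and 131 CPM in LBPXRS (6800 UMIs, 128 to 134). The thinned shares for Cdkn1a were 44.3% and 43.8%. Its log2 ratio of -0.11 was smaller than the shift of all genes and changed sign to 0.05 under TMM scaling, so it carries no direction.

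Myc (ENSMUSG00000022346, chr15:61985391-61990374) was nearly missing from LBPXRS. LB had 599 UMIs, 13.2 CPM (12.1 to 14.3), and LBPXRS had 8 UMIs in 7 of 2705 cells, 0.154 CPM (0.0666 to 0.304). That is 85.3-fold lower (43.0 to 199). The log2 ratio was -3.62 with the pseudocount of 1 and -5.70 with a pseudocount of 0.1. The thinned share of cells was 6.12% in LB and 0.153% in LBPXRS, and the unthinned share 20.8% and 0.259%. Neither library holds a cell type known to lack Myc, which leaves its free RNA background unmeasured, and a share as low as 0.153% is not read as expression.

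Mycn (ENSMUSG00000037169, chr12:12936093-12941914) was the main Myc family gene here and differed far less. Its level was 114 CPM in LB (5164 UMIs, 110 to 117) and 83.7 CPM in LBPXRS (4338 UMIs, 81.2 to 86.2), 1.36-fold lower (1.30 to 1.41), and the thinned shares were 36.9% and 31.7%. Myc supplied 10.4% of the UMIs of both genes in LB and 0.184% in LBPXRS. In thinned LB cells, Mycn was found in 38.7% of the 106 cells with Myc and in 36.8% of the cells without it, so detection of one gene hardly differed with detection of the other.

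The spread of counts over cells was read within each library, since at a low mean the ratio of variance to mean tends to 1 whatever the spread. In thinned LB cells this ratio was 1.69 for Ccnd2, at a mean of 0.119 UMIs per cell, against 1.44 for Ccnd1 and 1.54 for Cdkn1a at higher means of 0.459 and 0.748. In thinned LBPXRS cells it was 1.01 for Cdkn2a at a mean of 0.438, against 1.16 for Mycn at 0.416. Ccnd2 UMIs were thus gathered in fewer LB cells than its mean alone would give.

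LB cells were then grouped by markers with at least 2 UMIs. The groups that do not overlap were naive-marker cells (Klf4 or Esrrb, genes of naive pluripotency, 483 cells), formative-marker cells (Fgf5 or Pou3f1, 127), streak-marker cells (T or Mesp1, 187), mesoderm-marker cells (Hand1 or Foxf1, 45) and trophoblast-marker cells (Cdx2 or Gata3, 42), whose level was 271 CPM for Cdx2 and 20.3 CPM for Gata3. A further 404 cells were positive for markers of several groups and 495 for none. Hand1 and Cdx2 also overlapped: 132 cells held both, 46.0% of the Hand1 cells and 51.2% of the Cdx2 cells. T and Cdx2 were held together by 120 cells, 30.8% of the T cells and 46.5% of the Cdx2 cells. Of the 43 Gata3 cells, 28 held Hand1 and 15 held T. The group names stand for the markers, not for a cell type. Cells of 1 library are not replicates, and median depth ran from 22131 UMIs in streak-marker to 29217 in formative-marker cells, which affects how readily 2 UMIs are reached.

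By fold, Ccnd2 spanned the widest range of the 9 genes across these LB groups. Naive-marker cells had 23 UMIs, 1.68 CPM (1.07 to 2.53), and LBPXRS cells 2.74 CPM, with intervals that overlap. Cells with no marker had 12.1 CPM, formative-marker cells 16.2, streak-marker cells 29.6 and trophoblast-marker cells 29.9. Cells with several markers had 58.6 CPM and mesoderm-marker cells 91.0 CPM (74.4 to 110). In this order neighbours overlapped in their intervals between trophoblast- and streak-marker cells, between formative-marker cells and those with no marker, and between LBPXRS and naive-marker cells. Ccnd2 was found in 3 of 483 thinned naive-marker cells (0.621%, median depth 28070 UMIs) and in 15 of 44 thinned mesoderm-marker cells (34.1%, 27573 UMIs), and the lower of these shares is an upper estimate of its background from free RNA. Naive-marker cells held 30.0% of the LB UMIs but 2.04% of those of Ccnd2, while cells with several markers held 24.6% and 58.3%. Without regard to other markers, the level was 74.5 CPM in the 287 Hand1 cells, 101 CPM in the 63 Foxf1 cells, 57.6 CPM in the 258 Cdx2 cells and 44.6 CPM in the 389 T cells.

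**Figure D3:**
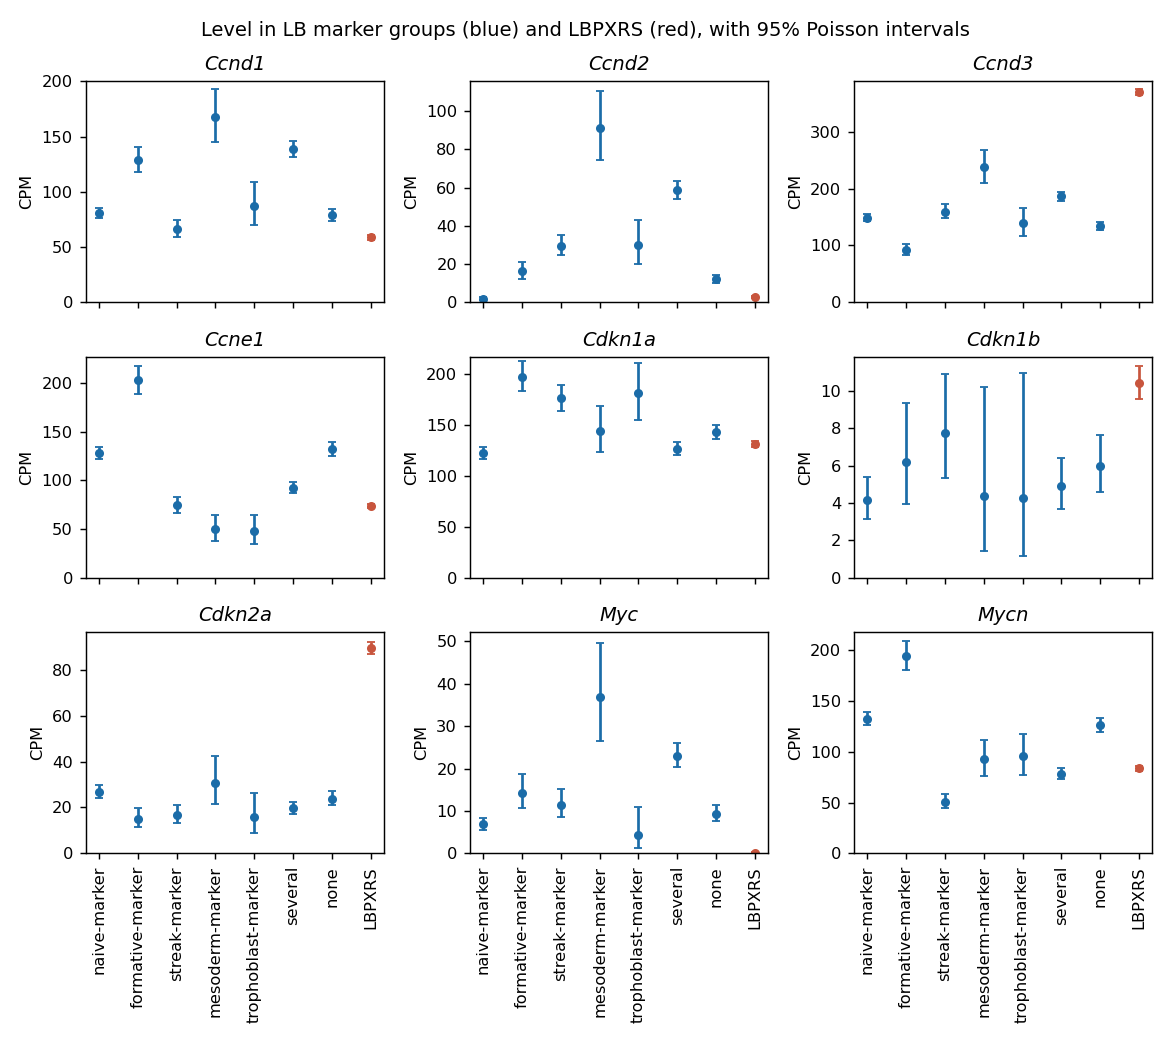
Levels of the 9 genes in the marker groups of LB cells and in LBPXRS, in CPM on linear axes that start at 0, with exact 95% Poisson intervals. Ccnd2 has 1.68 CPM in naive-marker cells and 91.0 in mesoderm-marker cells, and Cdkn2a stays between 15.1 and 30.6 CPM in the LB groups against 89.7 in LBPXRS.

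Set against naive-marker cells, 9 group values were past 2-fold at 10 CPM or more in either group. Ccnd2 supplied 4 of them, higher in formative-marker (log2 ratio 2.68), streak-marker (3.51), mesoderm-marker (5.10) and trophoblast-marker cells (3.52). Of the 9 genes, 8 passed the minimum in each of the formative-, streak- and mesoderm-marker groups and 7 in trophoblast-marker cells. In that order 1, 1, 3 and 1 were higher and 0, 1, 1 and 1 lower, small counts beside the shares of all genes. The shares of all genes at least 2-fold higher were 9.69%, 13.9%, 21.0% and 16.4% in those groups, and the shares at least 2-fold lower 4.53%, 7.10%, 8.50% and 9.10%. The other 5 of the 9 values were Mycn in streak-marker cells, Ccnd1, Myc and Ccne1 in mesoderm-marker cells, and Ccne1 in trophoblast-marker cells. Of the 9 values, 6 stayed past 2-fold under all 5 alternatives. The exceptions were Mycn in streak-marker cells, with -0.87 when 1 UMI of a marker after thinning was enough, and Ccnd1 and Ccne1 in mesoderm-marker cells, with 0.64 and -0.64 when 1 UMI was enough. Myc crossed 2-fold the other way: in formative-marker cells its log2 ratio was 0.96, with 1.17 when 1 UMI after thinning was enough and 1.05 with a pseudocount of 0.1, and in streak-marker cells it was 0.67, with 1.01 when 1 UMI was enough.

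Ccnd1 and Ccnd3 differed less by fold among LB groups than Ccnd2. Ccnd1 had 168 CPM in mesoderm-marker cells (145 to 193), 129 in formative-marker cells, 87.5 in trophoblast-marker cells, 80.9 in naive-marker cells and 66.2 in streak-marker cells. The place of trophoblast-marker cells depended on the marker minimum: their log2 ratio to naive-marker cells was 0.11, and 0.74 when 1 UMI after thinning was enough, above the 0.54 of formative-marker cells there. Ccnd1 had 157 CPM in the 258 Cdx2 cells and 175 CPM in the 43 Gata3 cells. The highest set was the 63 Foxf1 cells, with 257 CPM (234 to 281). Ccnd3 was lowest in formative-marker cells, at 92.4 CPM (82.9 to 103), and highest in mesoderm-marker cells, at 237 CPM (210 to 267), which remained below the 369 CPM of LBPXRS. As a result Ccnd1 gave 54.3% of D-type cyclin UMIs in formative-marker cells (50.9 to 57.6), where Ccnd3 gave 38.9%, while Ccnd3 gave 64.3% in naive-marker cells. Mesoderm-marker cells had the highest D-type cyclin sum of the LB groups, 496 CPM (456 to 539).

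Ccne1 and Mycn were both highest in formative-marker cells. Ccne1 had 203 CPM there (189 to 218), 128 in naive-marker cells (122 to 134), 74.8 in streak-marker cells (66.9 to 83.5), 49.9 in mesoderm-marker cells (37.8 to 64.6) and 48.0 in trophoblast-marker cells (35.0 to 64.2). The last pair did not differ beyond their counting error. Without regard to other markers, Ccne1 had 68.4 CPM in the 258 Cdx2 cells and 107 CPM in the 43 Gata3 cells (90.8 to 124). Mycn had 195 CPM in formative-marker cells (181 to 210), 133 in naive-marker cells, 96.0 and 92.8 in trophoblast- and mesoderm-marker cells, and 50.9 in streak-marker cells (44.4 to 58.2). Mycn was 2.60-fold lower in streak-marker than in naive-marker cells (2.26 to 3.01). In the single-marker sets Mycn had 80.6 CPM with Cdx2 and 51.9 CPM with Gata3 (41.1 to 64.7).

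Myc had another order, with its highest level in mesoderm-marker cells, 36.8 CPM (42 UMIs, 26.5 to 49.7). Formative-marker cells had 14.3 CPM, streak-marker cells 11.5, naive-marker cells 6.88 (5.56 to 8.42) and trophoblast-marker cells 4.27 from 4 UMIs. The intervals of formative- and streak-marker cells overlapped, as did those of naive- and trophoblast-marker cells, while streak-marker cells lay above naive-marker cells (1.67-fold, 1.16 to 2.38). Trophoblast-marker cells have no fixed place: their log2 ratio to naive-marker cells turned from -0.58 to 0.90 when 1 UMI of a marker was enough and to 0.25 after thinning, and Myc had 21.0 CPM in the 258 Cdx2 cells and 20.4 CPM in the 43 Gata3 cells without regard to other markers. Myc thus gave 28.4% of the UMIs of Myc and Mycn in mesoderm-marker cells (21.3 to 36.4), 18.4% in streak-marker cells and 4.93% in naive-marker cells.

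The CDK inhibitors were also compared among LB groups. Cdkn1a ran from 123 CPM in naive-marker cells (117 to 129) to 197 CPM in formative-marker cells (183 to 212). Between them lay trophoblast-marker cells at 181 (155 to 211), streak-marker cells at 176 and mesoderm-marker cells at 144. Cdkn2a ran from 15.1 CPM in formative-marker cells to 30.6 CPM in mesoderm-marker cells, with 26.8 CPM in naive-marker cells. Against naive-marker cells it was 1.77-fold lower in formative-marker cells (1.33 to 2.39) and 1.59-fold lower in streak-marker cells (1.23 to 2.07). In trophoblast-marker cells, with 15 UMIs, it was 1.67-fold lower (1.00 to 3.02). All LB groups were below its 89.7 CPM in LBPXRS. Cdkn1b ran from 4.17 CPM in naive-marker to 7.74 CPM in streak-marker cells (1.86-fold, 1.17 to 2.90), with 4 to 63 UMIs per group, and each neighbour in its order overlapped the next. The place of mesoderm-marker cells depended on the marker minimum: their log2 ratio to naive-marker cells went from 0.23 to 0.90 for Cdkn1a when 1 UMI was enough, above the 0.75 of formative-marker cells. When 1 UMI after thinning was enough, it went from 0.06 to 1.24 for Cdkn1b and from 0.19 to -0.39 for Cdkn2a.

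Since LBPXRS cells carried naive markers, the library was also compared with naive-marker LB cells alone, over 7248 genes with a median log2 ratio of 0.0060. LBPXRS cells were not selected by markers for this, so the cells of each side were chosen unlike. Klf4 was held, at 2 UMIs or more, by 1986 of them and not by 719. Those with Klf4 had more Mycn (93.7 against 48.5 CPM), Ccnd1 (61.5 against 48.7), Ccne1 (76.9 against 62.2) and Ccnd3 (381 against 326). Cdkn1a, Cdkn1b and Cdkn2a hardly differed. How far this enters the ratios was not tested. The shares of all genes past 2-fold were 6.08% lower and 8.94% higher. Ccnd3 (2.48-fold, 2.37 to 2.60), Cdkn2a (3.35-fold, 3.01 to 3.73) and Cdkn1b (2.49-fold, 1.89 to 3.34) were higher in LBPXRS, and 0 of the 7 members that passed the 10 CPM minimum were lower by this size. Cdkn1b, at 4.17 CPM in naive-marker cells and 10.4 CPM in LBPXRS, passed only through LBPXRS, so it could be counted only as higher. Ccnd2 and Myc were under that minimum in both sets. Ccnd2 was then 1.63-fold higher in LBPXRS (1.04 to 2.65), the reverse of its direction over all LB cells. Myc, at 6.88 and 0.154 CPM, was still 44.6-fold lower (21.7 to 106). Ccne1 was 1.74-fold lower, Mycn 1.58-fold lower and Ccnd1 1.38-fold lower, and Cdkn1a had a log2 ratio of 0.09.

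LBPXRS cells were compared within their own library by 5 single-marker sets. Mycn differed between several of them. The 262 cells with Gata2, a gene of trophoblast and blood, had 20.5 CPM of Mycn (16.9 to 24.6) against 91.2 CPM in the other cells, 4.45-fold lower (3.69 to 5.42). The 1986 cells with Klf4 had 93.7 CPM against 48.5 in cells without, and the 275 cells with Chac1, a gene of the integrated stress response, had 127 CPM against 77.8. Ccne1 had the same directions in smaller size, at 49.5 against 76.5 CPM with Gata2 and at 102 against 69.9 CPM with Chac1. Cdkn1a was lower with Chac1, at 104 CPM (96.1 to 112) against 135 CPM. Ccnd3 was 299 CPM with Gata2 and 433 CPM with Chac1. Cdkn2a was flat, between 89.4 and 102 CPM in all 5 sets.

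The few UMIs of Ccnd2 in LBPXRS were uneven. Of the 142 Ccnd2 UMIs, in 122 cells, 15 lay in the 39 cells with Id3, a BMP target, for 18.9 CPM (10.6 to 31.2) against 2.49 CPM elsewhere. The same 39 cells held 3 of the 8 Myc UMIs, in 2 cells, too few to read a pattern from. The barcodes shared by both libraries held none of the UMIs of either gene. Without the Id3 cells, a comparison added after the data were seen, the log2 ratios of LBPXRS to LB were -2.88 for Ccnd2 and -3.69 for Myc.

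For the cell cycle, the cells of each library were ranked by their share of UMIs from S phase genes, and again from G2/M genes, and cut into 4 bins of equal size. The lowest and highest bins, of 445 cells in LB and 676 in LBPXRS, were compared. They are ranges of a score, not cell types. Over whole libraries the S phase genes summed to 1869 CPM in LB and 1676 in LBPXRS and the G2/M genes to 2576 and 2407 CPM, with 0 of 18 and 0 of 20 genes past 2-fold. Of all genes, 10.4% were at least 2-fold lower and 7.98% higher. Ccne1 followed the S phase share in both libraries: it had 66.8 CPM in the low and 182 CPM in the high bin of LB, 2.73-fold, and 48.8 and 102 CPM in LBPXRS, 2.10-fold. For the G2/M share the LB values were 93.4 and 91.0 CPM, with intervals that overlap, and those of LBPXRS 55.1 and 65.6 CPM, 1.19-fold (1.07 to 1.32). Ccnd1 was higher in the high G2/M bin, 1.41-fold in LB (73.7 to 104 CPM) and 1.56-fold in LBPXRS (46.5 to 72.7 CPM). Ccnd1 was also higher in the high S phase bin, 1.27-fold in LB (1.16 to 1.38) and 1.44-fold in LBPXRS (1.30 to 1.61). The S phase ratio of Mycn was 1.07 in LB (0.986 to 1.16) and 1.54 in LBPXRS (1.41 to 1.69). Its G2/M ratio was 1.15 in LB and 1.32 in LBPXRS. Ccnd2 was 2.22-fold lower (1.33 to 3.78) in the high G2/M bin of LBPXRS, 1.80 against 4.01 CPM, while in LB it was 27.8 and 27.6 CPM. Cdkn2a was lower in the high G2/M bin of LB, 20.2 against 28.0 CPM, and of LBPXRS, 85.1 against 93.1 CPM. For the S phase share its low and high bins went opposite ways, from 26.3 to 20.5 CPM in LB (1.29-fold lower, 1.07 to 1.55) and from 82.9 to 99.1 CPM in LBPXRS (1.20-fold higher, 1.10 to 1.30), a difference between libraries that was not tested. Ccnd3 was 322 CPM in the low and 415 CPM in the high S phase bin of LBPXRS. In the low and high bins of both scores, LBPXRS stayed above LB for Ccnd3 and Cdkn2a.

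**Figure D4:**
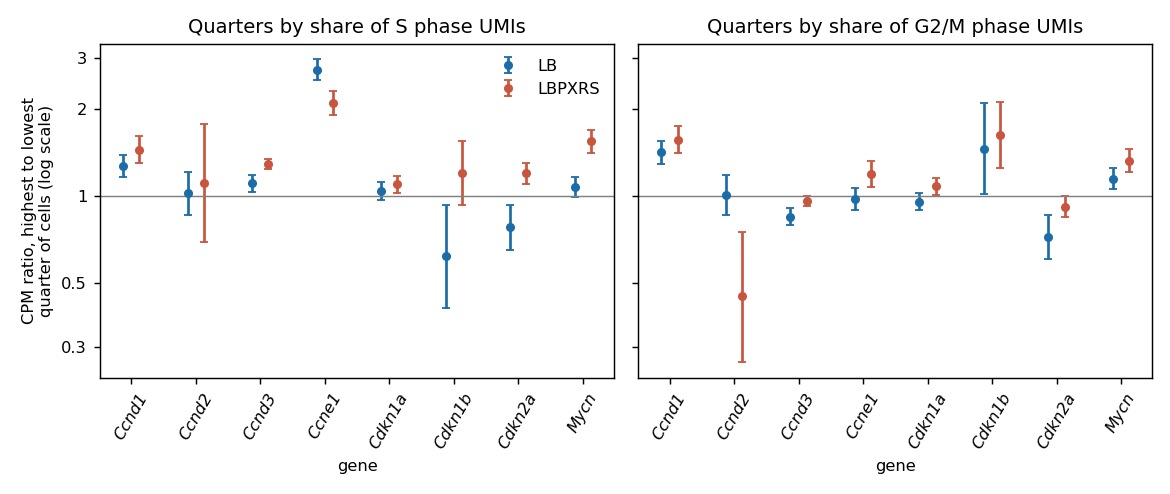
Fold difference of 8 of the genes (Myc, with 8 UMIs in LBPXRS, is not drawn) between the highest and the lowest of 4 bins of cells ranked by their share of S phase UMIs (left) and G2/M UMIs (right), on a log axis with exact 95% counting intervals, for LB and LBPXRS. Ccne1 has the largest S phase ratio in both libraries, 2.73 in LB and 2.10 in LBPXRS.

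Other genes of the G1/S machinery were counted next. Of 29 genes 20 passed the 10 CPM minimum, of which 0 were at least 2-fold higher and 2 at least 2-fold lower in LBPXRS, with a median log2 ratio of -0.33 against -0.17 for all genes. Over all genes 7.98% were higher and 10.4% lower, so 2 of 20 lower is near that share and is not read as a result. Cdk6, a kinase partner of the D-type cyclins, was 24.5 CPM in LB (1114 UMIs) and 1.14 CPM in LBPXRS (59 UMIs), 21.5-fold lower. The other was E2f4 on chromosome 8 (log2 ratio -1.20), which with its chromosome's median of -0.61 is not read on its own. Cdk4, the alternative partner, was 524 and 541 CPM. Among the 20 genes that passed the minimum, the largest log2 ratios were those of E2f1 (0.94), Cdk2 (0.70) and Cdkn2d (0.53). Skp2, which marks p27 for degradation, stood at -0.90.

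Partners of Myc and its target genes were also counted. Of the MYC network, 15 listed genes were found, of which 10 passed the minimum, with 0 higher, 1 lower and a median of 0.12. Over all genes 7.98% were higher and 10.4% lower, with a median of -0.17, so 1 of 10 lower is near that share. The gene past 2-fold was Ruvbl1 (-1.44), a component of chromatin remodelling complexes, with 86.0 and 31.0 CPM. Mga, a repressor that pairs with Max, had 0.87, Mxi1 0.44 and Mycl 0.42, and Mlx and Mnt, both on chromosome 11, had -0.45 and -0.15. Of 26 MYC target genes, most of them genes of ribosome production, 0 were past 2-fold in either direction, beside those same shares of all genes. Their median was -0.48, and 5 of 26 lay above the median of all genes. The lowest were Ddx21, just inside the limit at -1.00, Mybbp1a at -0.91, on chromosome 11 with its median of -0.63, and Pa2g4 at -0.84, while Cdk4 (0.05), Rrp9 (-0.01) and Hspe1 (-0.03) were the highest.

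For p53 targets, the list to which Cdkn1a belongs by function, 17 of 20 genes passed the minimum and the median was 0.14. Gdf15, a secreted stress factor on chromosome 8, was higher (log2 ratio 1.92, 7.47 and 31.2 CPM), and Perp, a junction protein, lower (-1.29, 30.2 and 11.7 CPM). Mdm2, which degrades p53 and is opposed by p19Arf, had 0.55 and Bbc3 0.51, while Ccng1, on chromosome 11, had -0.62 and Ddit4 -0.58.

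**Figure D5:**
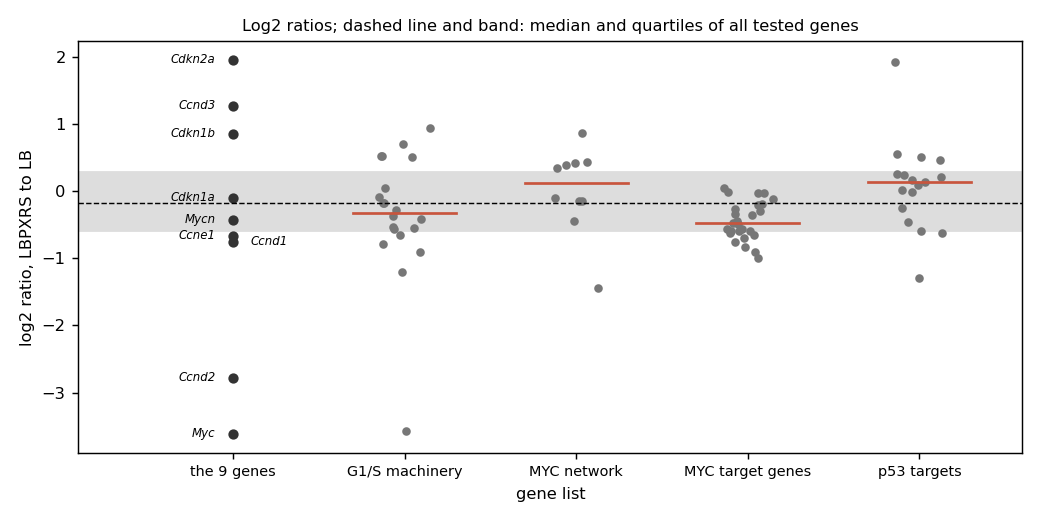
Log2 ratios of LBPXRS to LB for the 9 genes and for the tested genes of each pathway list, with the list's median as a red line and the median and quartiles of all tested genes as a dashed line and a grey band. The medians are -0.33 for G1/S machinery, 0.12 for the MYC network, -0.48 for MYC target genes and 0.14 for p53 targets.

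The genes whose pattern was most like each member were found over 8 points, the 7 LB groups and LBPXRS, among 8992 genes with at least 10 CPM in any of them, by Pearson's r of log2(CPM + 1). The LB points share 1 library, all differ in depth, and with so many genes high values of r are found for most members, so r is a description only. Ccnd2 was most like Dnajc14, Hsd17b7 and Fam57a (r = 0.99 for each), and Myc most like Nup205, Gnasas1 and Kat2a. Ccnd3 was nearest to Fxyd6, Tsc22d1 and Ablim1, and Cdkn2a to Tgm2 (r = 0.99), Mapt and Dpp7. For Ccne1 they were Jade3, Pick1 and Cdca5, for Mycn Ide, Inip and Xpo4, and for Ccnd1 Vps4b, Rcc1 and Traf7. Cdkn1b gave Mroh1, Fuz and Nudt8, and Cdkn1a, with the lowest values, 3110040N11Rik (r = 0.91), Fem1c and Ppp1r15b. Among the 9 genes themselves, the closest pair was Ccnd3 and Cdkn2a (r = 0.87), followed by Ccnd1 and Myc (0.81), Ccnd2 and Myc (0.74), Ccnd1 and Ccnd2 (0.69) and Ccne1 and Mycn (0.68).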

How the data were processed

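Per the submitters' processing notes, the authors used Cell Ranger 4.0.0 and the mm10 build. Per the file headers and labels' protocols, the deposited matrices hold raw UMI counts per gene and barcode from 10x 3′ v2 libraries. Settings of the counting and the annotation release are not given in the sources used here. Cells with at least 1000 genes and at most 10% mitochondrial UMIs were kept. UMIs were summed per library or marker group, and intervals are exact Poisson, conditional binomial or Clopper-Pearson. A difference counts as past 2-fold when the log2 ratio is 1 or more in size and the level 10 CPM or more in either set. Coordinates come from GENCODE M21 (GRCm38), in which 32235 of 32285 identifiers were found. Scrublet in scanpy 1.11.5 marked 12 LB cells (0.673%) and 11 LBPXRS cells (0.407%), which were kept, and it may have missed doublets. The scripts were tested on simulated data. Named genes were the 9 members, the group markers, the 3 highest and 3 lowest of each pathway list and the 3 genes most like each member. The highest and lowest were taken among genes with at least 10 CPM in either library. Members and lists were chosen with earlier results of these data known. The alternatives covered filters on cells, doublets, scaling (TMM in edgeR 4.0.16), depth, pseudocount, the marker minimum and the LB cells used.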

Additional observations from a re-analysis of the deposited data

How the results depend on the processing

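Over 12 alternatives, Ccnd2 and Myc were the members at least 2-fold lower and Ccnd3 and Cdkn2a those at least 2-fold higher in 11 (all except naive-marker LB cells only). With naive-marker LB cells only, 0 members were lower, Ccnd3, Cdkn1b and Cdkn2a were higher, Ccnd2 reversed to 0.48, and 441 of all genes were lower. Cdkn1b passed the minimum there only through its LBPXRS level. Myc stayed lower there, at -2.77, but was under 10 CPM in both sets and so not counted. The cause of these shifts was not tested. Without a CPM minimum, more genes were tested and 1561 were lower and 1117 higher. Of 108 member values, 105 kept their sign, with the exceptions Ccnd2 and Cdkn1a against naive-marker cells (0.09) and Cdkn1a with TMM scaling (0.05), which moved the median of all genes from -0.17 to -0.0072. With totals that leave out chromosomes 8, 11 and Y it was -0.26. Of 180 values between LB groups, 172 kept their sign, and the 8 that turned were those of Cdkn2a in mesoderm-marker cells and of Myc, Ccnd3 and Cdkn1b in trophoblast-marker cells, each in 2 alternatives. Thinning to 5000 UMIs left 8 members above the minimum. No paired analysis was possible because each condition has 1 library, and for the same reason none could be left out. Depth limits Myc in LBPXRS (8 UMIs) and Cdkn1b in the smaller LB groups (4 or 5 UMIs).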
